A study of Mus musculus with 2 samples.

Results

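The loci described here are those of Ebf1 and Pax5, genes of transcription factors that set up and hold B cell identity. The members were all regions marked by histone H3 monomethylated at lysine 4 (H3K4me1) that overlapped chr11:44250000-44950000 (Ebf1 and flanks, 700 kb) or chr4:44450000-44850000 (Pax5 and flanks, 400 kb) of the mouse build mm9. The rule found 74 of the 48130 regions in the series, 54 in the Ebf1 window and 20 in the Pax5 window. The regions came from chromatin immunoprecipitation and sequencing (ChIP-seq) of 1 H3K4me1 library, called by the authors against 1 input library made without antibody. Both libraries were made from pre-B cells, B cell precursors of the bone marrow that have not yet rearranged a light-chain gene. The donors were B6 mice of both sexes, aged 6 to 14 weeks, of genotype RAG1-/- and bearing a rearranged IgM transgene, so neither library comes from cells that rearrange their own antigen receptor genes. The number of mice pooled and the surface markers used to take the cells were not stated in the labels.

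EBF1 is a zinc-knuckle transcription factor that starts the B lineage programme, and PAX5 is a paired-domain factor that commits precursors to it. In mouse, EBF1 activates Pax5, and PAX5 acts back on Ebf1, so that the genes hold each other on. Ebf1 is transcribed from a distal and a proximal promoter, and mouse Pax5 carries an enhancer within its introns. H3K4me1 is found at enhancers, active or poised, and on the flanks of active promoters, whose nucleosomes nearest the start carry H3K4me3 instead.

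The promoters of both genes are shown here because the mark flanks active promoters. They are the 250 bases before each RefSeq start, 5′ to 3′ on the gene's strand. Both genes matched the RefSeq promoter table by symbol, Ebf1 with 2 starts and Pax5 with 1. These positions are on GRCm38.p6, another build than that of the regions. Whether any of these sequences lies under a region was therefore not analysed here. Capitals mark E boxes, the sites of E proteins, with the letters CANNTG.
Ebf1, first start, GRCm38.p6 chr11:44617850-44618099, plus strand: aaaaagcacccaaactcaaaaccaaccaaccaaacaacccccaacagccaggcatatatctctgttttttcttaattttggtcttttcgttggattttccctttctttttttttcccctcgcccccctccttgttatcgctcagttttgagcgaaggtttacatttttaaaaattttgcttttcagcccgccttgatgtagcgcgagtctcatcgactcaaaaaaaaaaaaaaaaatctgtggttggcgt
Ebf1, second start, GRCm38.p6 chr11:44619978-44620227, plus strand: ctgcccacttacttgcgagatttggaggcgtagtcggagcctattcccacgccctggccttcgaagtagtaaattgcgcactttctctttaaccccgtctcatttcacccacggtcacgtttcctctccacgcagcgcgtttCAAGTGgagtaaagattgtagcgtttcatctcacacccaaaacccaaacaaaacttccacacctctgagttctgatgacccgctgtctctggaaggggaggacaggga
Pax5, GRCm38.p6 chr4:44710695-44710944, minus strand: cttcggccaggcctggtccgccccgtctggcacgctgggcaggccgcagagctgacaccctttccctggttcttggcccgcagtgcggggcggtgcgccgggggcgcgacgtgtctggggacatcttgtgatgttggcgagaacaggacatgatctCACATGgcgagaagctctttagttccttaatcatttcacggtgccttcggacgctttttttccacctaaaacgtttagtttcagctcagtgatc
Sequence 5′ of the second Ebf1 start and of the Pax5 start held 1 E box each, and that of the first Ebf1 start held 0. An E box on either strand was present in 66.2% of all 32851 mouse promoters of this length in the table, so its presence is common. The EBF palindrome TCCCNNGGGA and the FOXO site TGTTTAC were searched on both strands too and had 0 matches in these 3 sequences, against 0.779% and 3.17% of all promoters. No match overlapped another motif. G and C made up 40.0% and 52.0% of the sequences before the first and second Ebf1 starts and 58.8% of that before the Pax5 start, around a median of 52.4% for all promoters.

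The H3K4me1 library held 50945360 tags, 15701950 of them in regions, per the file header, and no depth was at hand for the input. The file gives each region's position but no tag count, so a window is described by how many of its bases lie under a region. Without replicates there is no spread to set a difference against. No p-value is given, and the exact Poisson intervals (95%) on numbers of regions cover counting error only and treat neighbouring regions as independent. Because region calls are not expression values, the labelled cell type could not be checked against markers.

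Ebf1 lay in one of the most heavily marked stretches of the pre-B genome. Its 54 regions (exact Poisson interval 40.6 to 70.5) covered 188.3 kb, or 26.9% of the window. Across the autosomes and chromosome X, 4.30% of the bases between first and last regions lay under a region. The share in the window was 6.27 times that of the rest of this span (4.29%). Chromosome 11 as a whole is densely marked, and the window's share was 3.70 times that of the rest of this chromosome (7.28%). Counting the 53 regions whose midpoint lies in it, the window held 75.7 regions per Mb, against 18.8 per Mb in the rest of the genome.

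The Pax5 window was marked well above the genome average, but by a smaller margin. Its 20 regions (exact Poisson interval 12.2 to 30.9) covered 56.0 kb, or 14.0% of the window, 3.26 times the share of the rest of the genome (4.30%). It was 3.37 times the share of chromosome 4 outside the window (4.15%). By number of region midpoints per Mb, the window stood at 2.66 times the rest of the genome.

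Stretches of the same length put these shares in scale. The genome was laid out in 3637 consecutive stretches of 700 kb that did not overlap the Ebf1 window, and 17 of them were covered at least as much as the window. Their median was 1.89%, 90% of them lay below 12.3%, and the highest reached 34.0%. On chromosome 11, 1 of 166 such stretches matched or passed the Ebf1 window. For Pax5, 567 of 6384 stretches of 400 kb were covered at least as much as the window, so 91.1% of stretches lay below it, and their median was 1.31%. On chromosome 4 this was so for 35 of 378. By number of region midpoints the windows stood out less. At least as many were held by 56 of the 3637 stretches for Ebf1 and by 804 of the 6384 for Pax5. The Ebf1 window thus sat near the top of the genome's range, and the Pax5 window in its upper part.

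**Figure D1:**
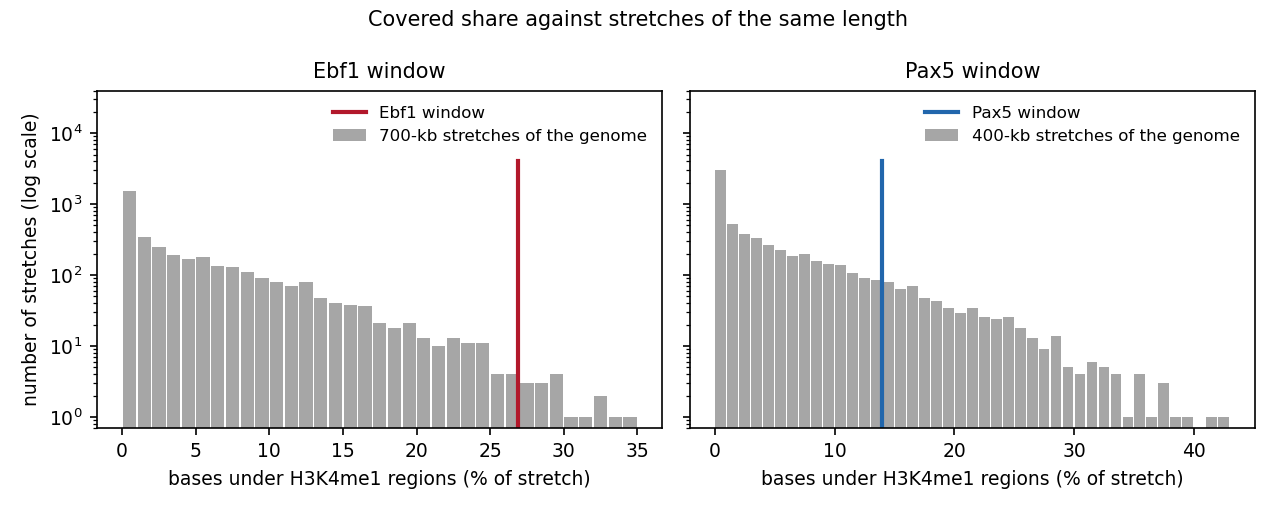
Numbers of consecutive genome stretches (log scale) by the percent of their bases under H3K4me1 regions, in steps of 1 percentage point, for 700-kb stretches (left) and 400-kb stretches (right), with the window drawn as a vertical line. The Ebf1 window, at 26.9%, has 17 of 3637 stretches at or above it, and the Pax5 window, at 14.0%, has 567 of 6384.

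The Ebf1 window, at 26.9%, was covered more than either flank, and the flanks were unlike each other. The 700 kb before it held 7 regions (exact Poisson interval 2.81 to 14.4) that covered 8.56 kb, or 1.22%, while the 700 kb after it held 43 regions (31.1 to 57.9) that covered 99.4 kb, or 14.2%. The window's share was 22.0 times that of the stretch before it and 1.90 times that of the stretch after it. Against both flanks together (7.71%) it was 3.49 times. Before the window, a single stretch without any region ran for 605.2 kb, from 43589667 to 44194832. By number, 664 of the 48109 gaps between neighbouring regions in the genome were as long or longer (1.38%). By sequence, long unmarked stretches are common, as 911 of the 3637 stretches of 700 kb (25.0%) had no covered base. Marking thus began shortly before the window, after the gap of 605.2 kb, and continued past the window on the other side. There the longest region (45333557 to 45350643) spanned 17.1 kb.

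**Figure D2:**
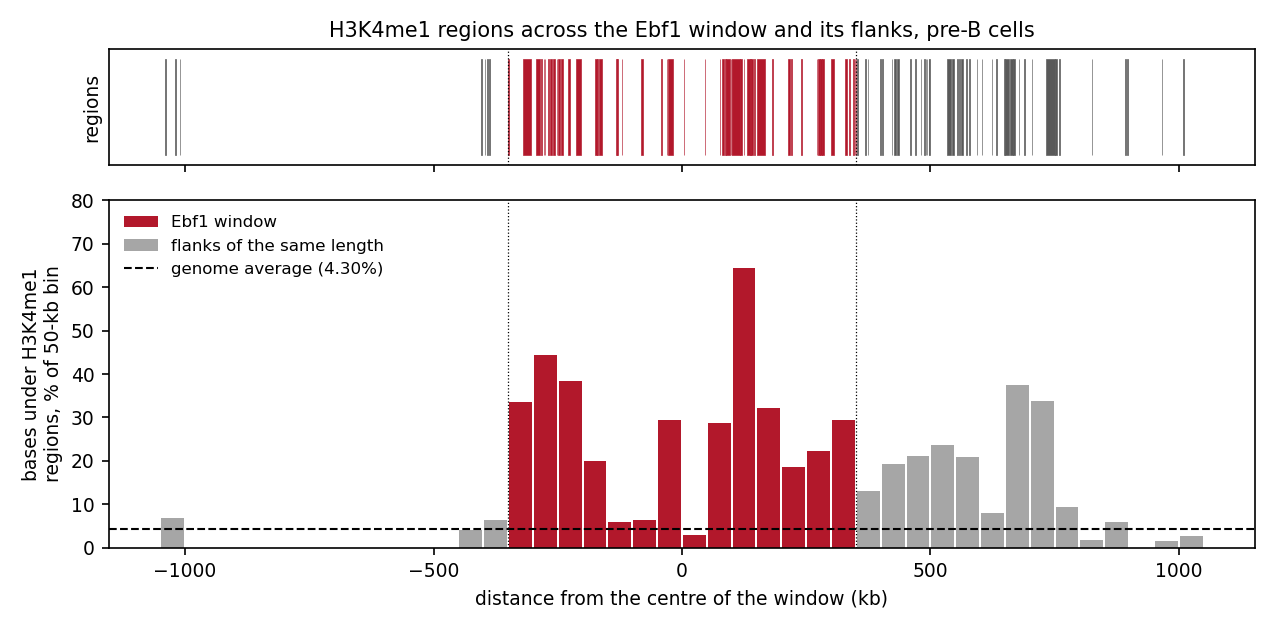
Position of each H3K4me1 region (upper track, thin outlines added so that the shortest remain visible) and percent of each 50-kb bin under regions (bars) against distance from the centre of the Ebf1 window in kb. Dotted lines mark the window, grey the flanks of the same length and the dashed line the genome average of 4.30%. Bins in the window range from 2.95% to 64.3%, and 11 of the 14 bins in the left flank are empty.

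Within the Ebf1 window, marking was concentrated in a pair of blocks with a sparser stretch between them. Joining regions over gaps of up to 12500 bases gave 16 domains, 3 of them with 5 or more regions and 8 with a single region. Across the genome, 2299 of 20377 domains had 5 or more regions and 10035 had a single one. The last of the 3, from 44928349, ran past the window to 44955119, with 6 regions in all. The first block, from 44280890 to 44373711, had 12 regions that covered 47.2 kb of 92.8 kb (50.9%). It ended at a gap of 12801 bases, just over the joining limit, so its edge depends on that limit. The second block, from 44676779 to 44766548, had 14 regions that covered 62.0 kb of 89.8 kb (69.0%). By covered bases they ranked 187 and 82 among the 20377 domains of the genome. Together these blocks held 57.8% of the summed length of the window's regions, not clipped at its edges. The next domain by covered bases had 3 regions from 44557735 to 44581992, with 14.7 kb covered.

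The 303.1 kb between the large blocks held 13 regions and 13.7% of its bases were covered, a share above the genome average though below that of either block. This share includes the 9.37-kb region from 44386513 to 44395886, which a slightly longer joining limit would have placed in the first block. The longest unmarked stretches of the window were all found there, at 41.8 kb (44604151 to 44645918), 38.7 kb (44479187 to 44517861) and 36.6 kb (44521107 to 44557734). In bins of 50 kb, the window's 14 bins had a median of 29.1% covered. The highest, 64.3%, lay in the second block and the lowest, 2.95%, just after the centre of the window. In 9 of the 14 bins over 20% of bases were covered, and 0 were empty. In the stretch after the window 5 of 14 bins passed 20%, and in the stretch before it 0 did.

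The longest Ebf1 region spanned 15.4 kb, from 44751144 to 44766548, and closed the second block. A region of 15.2 kb (44280890 to 44296113) opened the first block, and one of 15.0 kb (44701373 to 44716409) lay in the middle of the second. The next were 10.4 kb (44571560 to 44581992) and 9.37 kb (44386513 to 44395886). The first 3 of these were nearly equal in length and lay in both blocks. These 5 of 54 regions held 34.7% of the summed length of all 54, not clipped at the window's edges.

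Ebf1 regions were longer than the regions of the list as a whole. Their median length was 2579 bases (25th and 75th percentiles 907 and 4146), against 1497 bases (813 and 2694) for all 48130 regions. At least 2000 bases were spanned by 31 of the 54 (57.4%), against 37.5% of all regions, and at least 5000 bases by 8 (14.8%), against 8.92%. The shortest length in the list, 1 base over the caller's peak size of 500, was as frequent in the window as elsewhere, at 8 of 54 (14.8%) against 14.3%. Regions also lay closer together, with a median gap of 3.08 kb in the window, against 8.87 kb over all neighbouring regions. Gaps under 2.5 kb numbered 20 of 53 in the window (37.7%), above their share of all gaps (26.05%).

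The Pax5 window, with 20 regions and 14.0% of its bases covered, lay between its flanks. The 400 kb before the window held 12 regions (exact Poisson interval 6.20 to 21.0) that covered 36.4 kb, or 9.10%. The 400 kb after it held 28 regions (18.6 to 40.5) that covered 115.1 kb, or 28.8%. The share in the window was thus 1.54 times that before it and 0.487 times that after it, and 0.739 times that of both flanks together (18.9%). The number of region midpoints per Mb was the same in the window as over both flanks, with a ratio of 1.00.

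A few broad regions held much of the coverage after the Pax5 window. Within the window the longest region spanned 10.5 kb. After it, the longest spanned 22.8 kb (44889078 to 44911915), directly before one of 22.2 kb (44912814 to 44934991). The third longest spanned 14.1 kb (44971060 to 44985203). Each was longer than every region within the Pax5 window, as was one from 297.6 to 311.7 kb past the window's centre. The highest 50-kb bin within the window was 42.0% covered, against 73.9% and 63.4% in the bins that begin 50 and 100 kb past it.

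**Figure D3:**
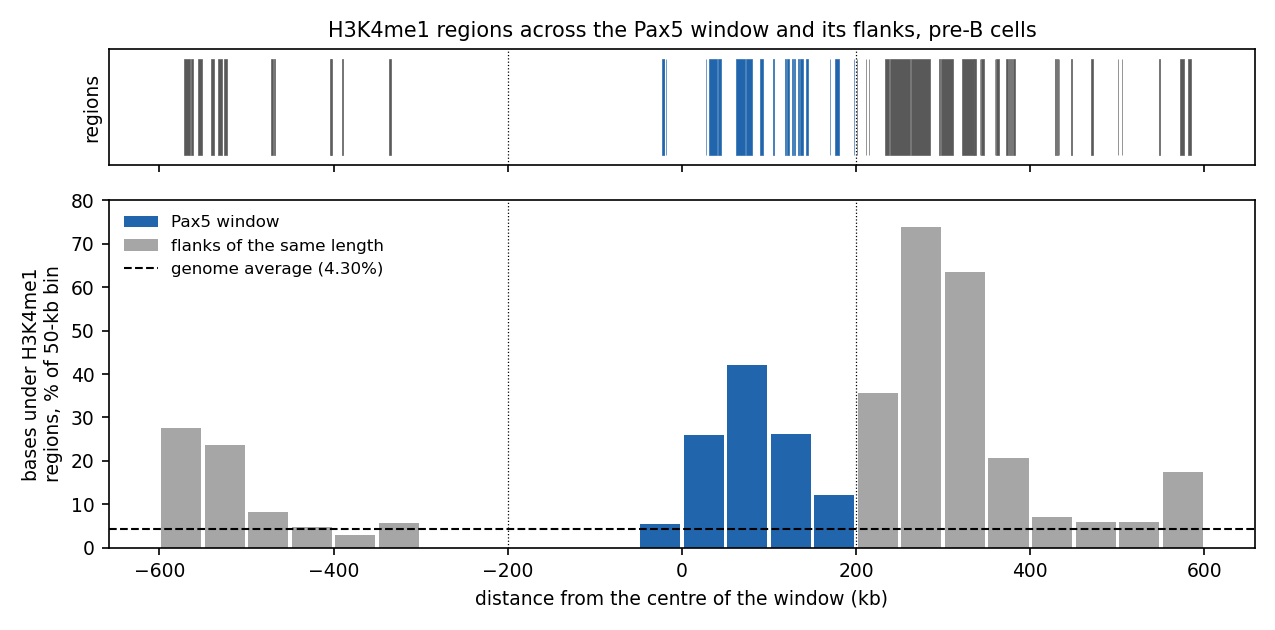
Position of each H3K4me1 region (upper track, thin outlines added so that the shortest remain visible) and percent of each 50-kb bin under regions (bars) against distance from the centre of the Pax5 window in kb. Dotted lines mark the window, grey the flanks of the same length and the dashed line the genome average of 4.30%. The first 3 bins of the window are empty, its highest bin reaches 42.0% and the highest bin of the right flank 73.9%.

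The marked part of the Pax5 window lay mostly on the side of the higher coordinates, and 3 regions covering 2.78 kb lay before the window's centre. No region began before 44627120, which left the first 177.1 of its 400 kb unmarked. This belonged to a gap of 311.1 kb, from 44315972 to 44627119, that began in the left flank. Gaps as long or longer numbered 1232 of 48109 in the genome (2.56%). By sequence, unmarked stretches are again common, as 2161 of the 6384 stretches of 400 kb (33.9%) had no covered base. From the first region to the end of the window, 25.1% of 222.9 kb was covered, a share close to the 26.9% of the Ebf1 window, but these edges were set after the positions were seen. RefSeq places Pax5 on the minus strand of GRCm38.p6, so higher coordinates lie towards and beyond its start.

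The 20 Pax5 regions fell into 5 domains, the last of which ran past the window to 44865301, with 4 regions in all. The largest, from 44711680 to 44794224, had 11 regions that covered 34.1 kb of 82.5 kb (41.3%) and ranked 381 among the genome's 20377 domains. The second, from 44677456 to 44694656, had 3 regions that covered 13.0 kb of 17.2 kb (75.7%). A domain of 2 regions from 44819780 to 44830387 was the next, with 5.58 kb covered. At this limit the 2 largest domains held 84.2% of the covered bases, and the 17.0 kb between them was unmarked. After the empty start of the window, the longest unmarked stretches were 45.8 kb (44631627 to 44677455) and 25.6 kb (44794225 to 44819779).

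The longest Pax5 region spanned 10.5 kb, from 44711680 to 44722148, and was separated by 1.56 kb from one of 6.80 kb (44723711 to 44730513). The second longest, at 9.30 kb, ran from 44680934 to 44690233. Regions of 5.08 kb (44825310 to 44830387) and 3.81 kb (44785151 to 44788961) followed. These 5 of 20 regions held 63.3% of the covered bases. The median Pax5 region was 1441 bases long, near the 1497 bases of all regions. At least 5000 bases were reached by 4 of 20 (20%), against 8.92% of all regions. The shortest length was that of 5 of 20 (25%), against 14.3%. The median gap was 3.95 kb, against 8.87 kb over all neighbouring regions. Gaps under 2.5 kb numbered 7 of 19 (36.8%), also above their share of all gaps.

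The order of the deposited list gave a further description of each region. The list is sorted neither by position nor exactly by length, though place and length went together closely (Spearman's rho of -0.973 across the 48130 regions of this library, which are not independent). Runs were counted by starting a new one wherever the order by chromosome name and then position broke, so each is sorted by definition. The last 5000 entries held 30 runs, against 2897 in the whole list. Sorting on a quantity with many ties can leave such long runs, but how the list was sorted was not tested. HOMER, the caller, is known to write regions from the highest score down, but the file does not state its order, so a place is given here as a place only.

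By list place, the long regions of both loci stood near the front, as long regions do throughout the list. The places and shares given next therefore largely restate length. The 3 longest Ebf1 regions were entries 340, 317 and 307, from the longest down. The Pax5 region of 9.30 kb was entry 729, ahead of the longer 10.5-kb region at entry 1200. Of the Ebf1 regions 10 of 54 (18.5%) were in the first 4813 entries, and of the Pax5 regions 4 of 20, where 10% of all regions are by construction. For each region, length was set against the median of its 200 neighbours on each side in the list, and regions chosen after these values were seen are named here. The Pax5 region from 44754165 to 44755729 was 1565 bases long at entry 14062, among regions with a median of 2417 bases. The Ebf1 region from 44429144 to 44430621 was 1478 bases long at entry 17645, among regions with a median of 2020 bases. At the other extreme, the Ebf1 region from 44717536 to 44721195 was 3660 bases long but stood at entry 15243, beside a median of 2292 bases. Beyond the shortest length, 32 of 46 Ebf1 regions were longer than the median of their list neighbours and 14 shorter. For Pax5, 8 of 15 were longer and 7 shorter. Over all 41260 such regions of the list 52.6% were longer and 47.3% shorter, a split set largely by the use of a median.

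**Figure D4:**
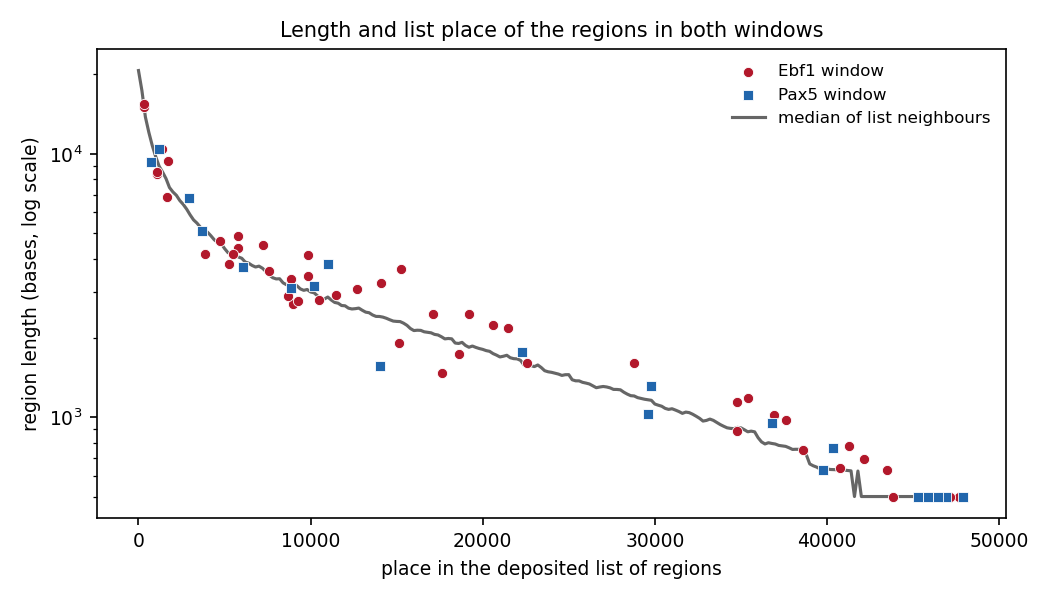
Length of each region in the Ebf1 window (circles) and the Pax5 window (squares), in bases on a log scale, against its place in the deposited list, with the median length of the 200 list neighbours on each side as a line. Members follow the line closely, with 3 Ebf1 regions near 15 kb at places 307 to 340.

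Other genes share these neighbourhoods, and the windows do not separate them from Ebf1 and Pax5. In RefSeq order on GRCm38.p6, the protein-coding genes before Ebf1 are Il12b, the shared subunit of interleukins 12 and 23, Ublcp1, a phosphatase of the proteasome, and Rnf145, an E3 ubiquitin ligase, and the one after it is Clint1, a clathrin adaptor. Pax5 lies between Melk, a kinase of dividing cells, and Zcchc7, a zinc-knuckle protein of nuclear RNA surveillance, which is followed by Grhpr, an enzyme of glyoxylate metabolism. The table lists Mir5120, Gm12462 and 5730488B01Rik within Pax5. Which of these genes fall inside the mm9 windows or under the blocks and flanks described above was not analysed here, and no region is assigned to a promoter, exon or intron.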

How the data were processed

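The submitters' processing notes name Bowtie 0.12.9, HOMER 4.7 and mm9. Per the file headers, HOMER's findPeaks in histone style searched peaks of 500 bases, called them at 4-fold over input (Poisson threshold 1e-04) and stitched them into regions. The score column deposited by the authors is 1 for every region and was not used. From the deposited positions, given here counting from 1, regions overlapping each window by any base were taken and covered bases were clipped at its edges. The genome reference is the 2562 Mb between first and last regions of the 19 autosomes and chromosome X, outside the window. Flanks are the stretches of the same length on each side. The naming rule took the 5 longest regions, 3 largest domains and 3 longest unmarked stretches per window. Members and lists were chosen with earlier results of these data known. The planned list of other B-lineage genes, and gene annotation of regions, needed mm9 gene positions and were not used here. With 1 library per group, no test was made. Alternatives varied the regions counted, the window's edges, the reference and the stitching gap. The interval functions were tested on simulated data. Python 3.11.15, numpy 2.4.6, pandas 2.3.3, scipy 1.17.1 and matplotlib 3.10.9 were used.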

Additional observations from a re-analysis of the deposited data

How the results depend on the processing

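Of 42 alternatives, 28 kept each value within the counting interval of its main value (or a count within 1.5 times). The counting interval comes from the number of regions and does not measure the error of a covered share. It is wide for the 20 Pax5 regions (12.2 to 30.9), so staying within it is a weak check. The Ebf1 window's share over the genome (6.27) came to 4.03 by region midpoints per Mb, 3.70 against its own chromosome and 14.3 against the median stretch of the same length. Its share over the flanks (3.49) came to 2.12 by region midpoints per Mb, 2.34 with the window narrowed by 50 kb at each end, 2.45 with flanks of 0.5 times and 2.55 with flanks of 2 times the length, 22.0 against the left flank alone and 1.90 against the right. It stayed above 1 in all 9. The Pax5 window's share over the genome (3.26) came to 10.7 against the median stretch of the same length. Its share over the flanks (0.739) turned round to 1.54 against the left flank alone, was 1.00 by region midpoints per Mb, and ranged down to 0.487 against the right flank. Domains numbered 10 in the Ebf1 window when stitched over 25 kb (main 16), and 9 and 3 in the Pax5 window when stitched over 5 and 25 kb (main 5). Leaving region-free gaps over 3 Mb out of the genome span, an alternative chosen after seeing the data, gave 5.41 for Ebf1 and 2.81 for Pax5. No paired analysis was possible because there is 1 library per group, and no replicate could be left out. The windows' edges are round numbers that include sequence outside both genes, and without tag counts per region those close to the calling threshold could not be told from the rest.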
